A study of Rattus norvegicus with 44 samples.

Results

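Transcript levels of 10 genes that move calcium into, out of and through neurons, or that carry its signal through the phosphatase calcineurin, were followed across the dentate gyrus (DG) of 44 rats. The genes were chosen by symbol: the calcium channel pore subunits Cacna1a, Cacna1c and Cacna1d, the store release channels Ryr2, Ryr3 and Itpr1, the plasma membrane pump Atp2b1, and the calcineurin subunits Ppp3ca, Ppp3cb and Ppp3r1. They are 10 of the 18347 gene identifiers in the deposited table, and all 10 were among the 15598 genes tested. All rats were male F344. Young rats (YNG, n = 10) were 6 months old and received vehicle. Older rats received vehicle (AV, n = 12), the senolytic ABT-263 at 12 mg/kg (AA, n = 11) or dasatinib at 1.2 mg/kg plus quercetin at 12 mg/kg (D + Q, group ADQ, n = 11). The labels give the older rats as 12 months old, which was their age when treatment began, and by the methods of the study they were about 18 months old at tissue collection. Dosing of the older rats was by oral gavage for 5 days in each of 8 cycles, with a final round after behavioral testing. Tissue was taken 2 weeks after the last treatment. The labels do not say which older rat had which treatment, so the group was read from the authors' attributes table by the rat's name, and 0 rats had an age there that differed from the label. Each library came from the DG of a single hemisphere of 1 rat, so that neighboring tissue and non-neuronal cells contributed RNA as well.

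Calcium enters neurons through voltage-gated channels. Cacna1a encodes the pore of the P/Q-type channel, best known for transmitter release, and Cacna1c and Cacna1d encode the pores of L-type channels, which couple depolarization to gene expression and to the slow afterhyperpolarization. Ryanodine receptors (Ryr2, Ryr3) and the inositol trisphosphate receptor (Itpr1) release calcium from the endoplasmic reticulum, and Atp2b1 pumps it out across the plasma membrane. Calcineurin is a calcium- and calmodulin-dependent phosphatase made of a catalytic subunit (Ppp3ca or Ppp3cb) and the regulatory subunit Ppp3r1, and it is linked to long-term depression and to the dephosphorylation of NFAT transcription factors. In the hippocampus, L-type channels, ryanodine receptors and calcineurin have long been studied in connection with aging.

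Levels are the deposited normalized values, which are estimated reads divided by the median-ratio factor of their library. Changes are differences of group means on the log2(value + 1) scale from limma, and a gene was called at an unadjusted p of 0.05, with the p adjusted over all 15598 genes beside it. The total of the normalized values ranged from 14297964 to 20579982 per library, and the estimated depth from 10166556 to 24328425 reads. A set of 9 libraries with totals above 17000000 stood apart from the other 35, which lay below. Of these 9, 5 were YNG, 3 were AV, 1 was ADQ and 0 were AA. Their share of values on the 13 mitochondrially encoded genes lay between 11.3% and 19.97%, while over all rats its median was 12.9% for YNG, 9.27% for AV, 8.51% for AA and 8.68% for ADQ. Cacna1d was below the median of all 44 rats in 9 of these 9 libraries, and Cacna1c, Ryr2 and Ryr3 each in 8. Ppp3cb and Ppp3r1 were below it in 1 of the 9 each. Within YNG, Ryr2 had a median of 5283 in the 5 libraries above 17000000 and 8636 in the other 5, and Ryr3 had medians of 432 and 732. The changes of the 10 genes and the counts for other calcium genes and cell type markers are therefore also given without these 9 libraries, a choice made after the values were seen.

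**Figure D1:**
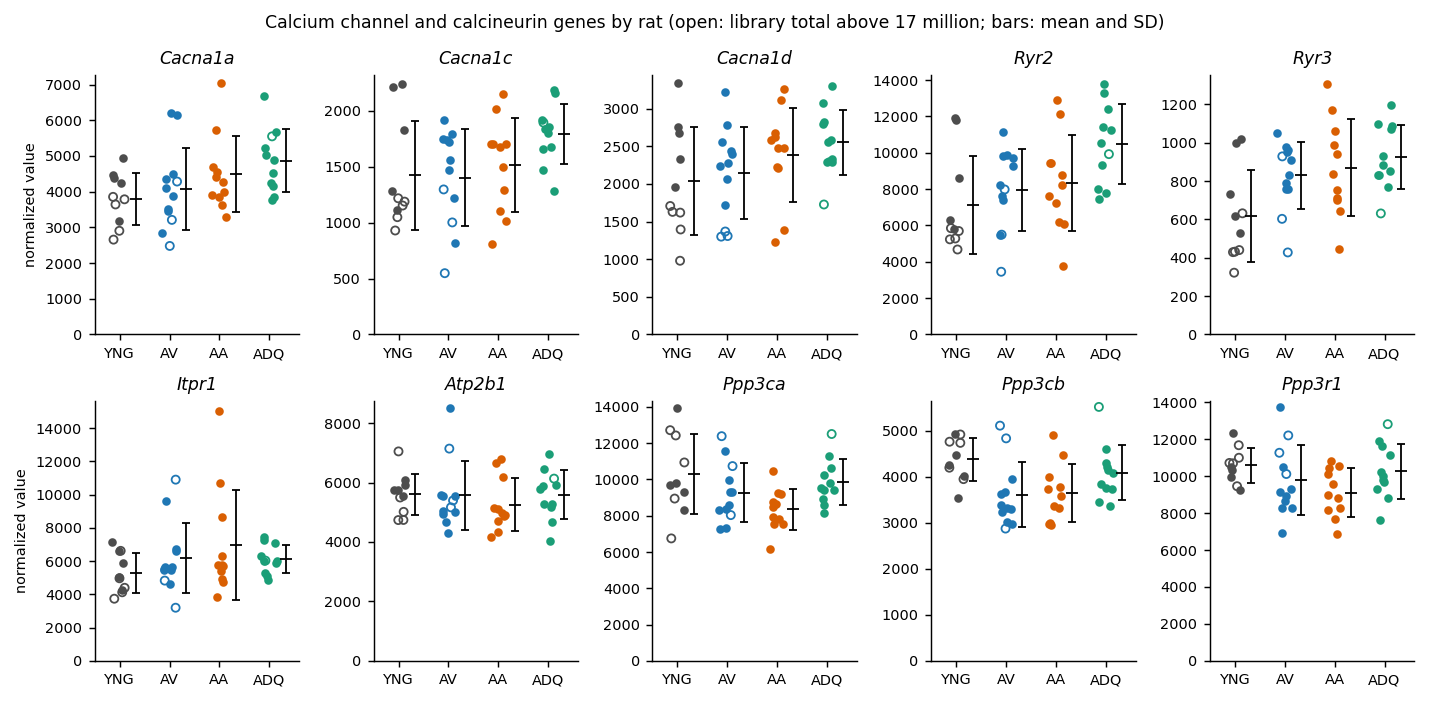
Normalized value of each of the 10 genes in each rat, by group, with the mean and SD drawn beside the points, and open circles for the 9 libraries with totals above 17000000. Ryr3 was above the YNG median in 32 of 34 older rats and Ppp3cb below it in 28 of 34. The open YNG circles lie low for Ryr2 and Cacna1d and, apart from V12 at 632, for Ryr3.

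Relative to YNG, the older rats as a whole (the mean of the AV, AA and ADQ means, 34 rats) had higher Ryr3 and Ryr2 and lower Ppp3cb. These were 3 of the 10 genes (2 higher, 1 lower), and 32.4% of all genes tested were called in this comparison, 15.7% higher and 16.7% lower. After adjustment 2 of the 10 remained (Ryr3 and Ppp3cb), against 14.9% of all genes. Without the 9 libraries 1 of the 10 was called (Ppp3cb), against 9.12% of all genes. Fitting the library total as a covariate left 0 called, against 9.62% of all genes. The 10 genes had a median change of 0.19 on the log2 scale, and all genes had a median of 0.00391. A change in bulk tissue cannot be divided into fewer cells of a type and less RNA per cell, which cannot be told apart here.

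Ryr3, a ryanodine receptor of the endoplasmic reticulum, ranged from 322 to 1021 in YNG with a median of 576. The AV rats lay between 428 and 1053 (median 871), the AA rats between 443 and 1307 (median 835) and the ADQ rats between 632 and 1195 (median 886). The groups overlapped, but 32 of 34 older rats lay above the YNG median and 8 of 34 above the highest YNG rat. Ryr3 was 1.47-fold higher in the older rats than in YNG (log2 change 0.56, SE 0.14, adjusted p = 0.0111), which placed it at rank 404 of 15598 genes by p. Group by group, the log2 change from YNG was 0.49 for AV (adjusted p = 0.102) and 0.53 for AA (adjusted p = 0.0596), and it was 0.66 for ADQ (adjusted p = 0.0224). These 3 comparisons share the YNG rats. The 3 older groups were not called different from each other for Ryr3, and the 95% interval of ADQ against AV ran from -0.16 to 0.51. Ryr3 has a pair of entries in the deposited table, and both were higher in the older rats (log2 changes 0.57 and 0.53, adjusted p = 0.0139 and 0.026 over 20258 entries). Without the 9 libraries above 17000000 the Ryr3 change was 0.23 for older against YNG, with 0.22 for AV, 0.14 for AA and 0.32 for ADQ, and none of these was called. With the library total as a covariate it was 0.22 for older against YNG (p = 0.0885).

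Ryr2, the ryanodine receptor best known from heart and also abundant in brain, ranged from 4677 to 11910 in YNG with a median of 5838. AV rats ranged from 3452 to 11120 (median 8099), AA rats from 3757 to 12880 (median 8221) and ADQ rats from 7475 to 13790 (median 10540). In YNG, 3 rats had values of 8636, 11820 and 11910 and the other 7 had 6309 or less, and every ADQ rat exceeded those 7. Ryr2 was 1.52-fold higher in ADQ than in YNG (log2 change 0.61, SE 0.19, adjusted p = 0.0406). It was also higher in ADQ than in AV (log2 change 0.43, 95% interval 0.07 to 0.79, p = 0.02, adjusted p = 0.446) and lower in AA than in ADQ (-0.37, p = 0.0488, adjusted p = 0.981). With the mitochondrial share as a covariate, the change in ADQ against AV was 0.26 and was not called (p = 0.0542). That of AA against ADQ was then -0.37 and was called (p = 0.00712). In AV and AA the changes from YNG were 0.18 and 0.24 and were not called. Over all older rats the change was 0.34 (p = 0.033, adjusted p = 0.119), and it was 0.06 and not called without the 9 libraries (p = 0.742), with 0.05 when the library total was a covariate (p = 0.727). Both entries of Ryr2 had higher values in the older rats (0.37 and 0.31), with an adjusted p of 0.166 and 0.164. Without the 9 libraries the change was 0.27 in ADQ against YNG and 0.27 in ADQ against AV, and neither was called, while AA against ADQ stayed at -0.38 and was called.

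Itpr1, the main inositol trisphosphate receptor of neurons, ranged from 3734 to 7119 in YNG (median 4994) and from 3192 to 10900 in AV (median 5596). It ranged from 3837 to 15050 among AA rats (median 5765) and from 4865 to 7476 among ADQ rats (median 6002). The highest values came from 1 AA rat at 15050 and from AV rat 3989 at 10900, and the bulk of each older group overlapped YNG. Itpr1 was not called in any of the 7 comparisons in the main fit, with a log2 change of 0.25 in older against YNG (95% interval -0.04 to 0.54) and 0.12 without the 9 libraries (p = 0.498). Array weights called it in AV (0.34, p = 0.0173) and in AA (0.32, p = 0.0232) against YNG. In AA it was also called with values rescaled to the library total (0.47, p = 0.0158) and from its largest entry alone (0.29, p = 0.0455). The low-number rats described below had 0.57 in AA, also called (p = 0.0373). The gene has 5 entries in the table. Entry 4, with 27.8% of the gene's mean value, and entry 5, with 18.8%, were higher in the older rats (0.27 and 0.63, adjusted p = 0.134 and 0.0935), and the other 3 entries were not called.

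Among the voltage-gated channels, higher values were found with D + Q. Cacna1a ranged from 2656 to 4939 in YNG (median 3820), and reached 2479 to 6193 among AV rats (median 3987), 3281 to 7051 among AA rats (median 4266) and 3753 to 6680 among ADQ rats (median 4894). The ADQ rats lay in the upper part of the YNG range and beyond it. Cacna1a was higher in ADQ than in YNG by 0.36 on the log2 scale (SE 0.14, adjusted p = 0.0789) and higher than in AV by 0.28 (p = 0.0326, adjusted p = 0.495). Cacna1c ranged from 930 to 2240 in YNG (median 1203), with 548 to 1916 among AV rats (median 1516), 809 to 2148 among AA rats (median 1680) and 1279 to 2188 among ADQ rats (median 1841). No ADQ rat fell below 1279, whereas the lower values of the other 3 groups did. Cacna1c was 1.31-fold higher in ADQ than in YNG (log2 change 0.39, adjusted p = 0.153) and 1.34-fold higher than in AV (0.42, 95% interval 0.07 to 0.77, p = 0.019, adjusted p = 0.442).

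Cacna1d ranged from 979 to 3336 in YNG (median 1836) and from 1300 to 3222 in AV (median 2258). Its range was 1225 to 3262 in AA (median 2473) and 1727 to 3304 in ADQ (median 2552). The YNG rats spanned the whole range of the older rats. Cacna1d was higher in ADQ than in YNG (log2 change 0.39, SE 0.18, adjusted p = 0.143), and in ADQ against AV the change of 0.29 was not called (95% interval -0.05 to 0.63). The channel subunits were not called in AV or AA against YNG in the main fit, where Cacna1a changed by 0.08 and 0.23, Cacna1c by -0.03 and 0.10, and Cacna1d by 0.10 and 0.26. Array weights called Cacna1d in AV (0.33, p = 0.0171) and in AA (0.46, p = 0.0013), and Cacna1c in AA (0.37, p = 0.00924). With values rescaled to the library total, Cacna1a was called in AA (0.38, p = 0.0167). Without the 9 libraries the 3 channel genes were not called in ADQ against YNG (0.17 for Cacna1a, 0.08 for Cacna1c and 0.02 for Cacna1d) or in ADQ against AV (0.17, 0.22 and 0.14). When the library total was a covariate, Cacna1d turned to lower values than in YNG in all 3 older groups. It was -0.0801 in ADQ (p = 0.517), -0.24 in AA (p = 0.0601) and -0.25 in AV, where it was called (p = 0.0364). Cacna1c turned to -0.19 in AA (p = 0.301) and Cacna1a to -0.026 in AV (p = 0.848). Cacna1a (0.22) and Cacna1c (0.11) were not called in ADQ against YNG under this covariate.

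The pump Atp2b1 did not pass the threshold in any of the 7 comparisons in the main fit. With array weights it was lower in AA than in ADQ (-0.17, p = 0.0299). It ranged from 4737 to 7049 in YNG (median 5646), with 4296 to 8527 among AV rats (median 5281), 4155 to 6786 among AA rats (median 4969) and 4033 to 6961 among ADQ rats (median 5788). These ranges overlapped throughout. Its change in older rats relative to YNG was -0.04 on the log2 scale, with a 95% interval from -0.21 to 0.12, and -0.12 without the 9 libraries (p = 0.28).

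Of the calcineurin subunits, Ppp3cb was lower in AV than in YNG and all 3 were lower in AA than in YNG, except that none of the 3 AA differences was called with values rescaled to the library total (-0.13, -0.13 and -0.08 for Ppp3ca, Ppp3cb and Ppp3r1), a rescaling that moved the median change of all genes in older against YNG to 0.13. Ppp3cb, a catalytic subunit, ranged from 3529 to 4934 in YNG (median 4355) and from 2872 to 5108 in AV (median 3348). It ranged from 2941 to 4902 in AA (median 3574) and from 3366 to 5515 in ADQ (median 4076). Of the older rats, 28 of 34 lay below the YNG median and 14 of 34 below the lowest YNG rat. Ppp3cb was lower than in YNG by 18.4% in AV (log2 change -0.29, SE 0.09, adjusted p = 0.0823) and by 17.4% in AA (-0.28, adjusted p = 0.0728), and in ADQ the change of -0.10 was not called. Relative to AV it was higher in ADQ (0.19, 95% interval 0.01 to 0.38, p = 0.0432, adjusted p = 0.52). Over all older rats the change was -0.22 (adjusted p = 0.0489), and the adjusted p was from 0.0534 to 0.0598 with no filter, upper quartile scaling or the largest entry of each gene. Rescaled to the library total, Ppp3cb was -0.09 in all older rats (p = 0.196) and not called, -0.19 in AV (p = 0.0277), and 0.04 in ADQ (p = 0.647), where its direction turned. Without the 9 libraries Ppp3cb kept its calls, at -0.32 for AV and -0.23 for AA relative to YNG, 0.22 for ADQ relative to AV and -0.22 for the older rats relative to YNG (adjusted p = 0.414). With the library total as a covariate the calls of AA (-0.11, p = 0.241) and of all older rats (-0.08, p = 0.314) ended, while those of AV relative to YNG (-0.18, p = 0.0456) and of ADQ relative to AV (0.23, p = 0.00653) did not.

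Ppp3ca, the catalytic subunit that predominates in forebrain neurons, ranged from 6750 to 13950 in YNG (median 9754) and from 7257 to 12390 in AV (median 8958). Its range was 6158 to 10480 in AA (median 8503) and 8146 to 12510 in ADQ (median 9540). The AA rats filled the lower part of the YNG range. Ppp3ca was lower in AA than in YNG (log2 change -0.28, SE 0.10, adjusted p = 0.0838) and lower in AA than in ADQ (-0.24, p = 0.0219, adjusted p = 0.981). Both differences were as large or nearly so without the 9 libraries (-0.28 and -0.21). The AA change from YNG was -0.23 and not called when the library total was a covariate (p = 0.0515). Ppp3r1, the regulatory subunit, ranged from 9235 to 12320 in YNG (median 10590), with 6918 to 13740 among AV rats (median 9232), 6844 to 10820 among AA rats (median 8965) and 7627 to 12820 among ADQ rats (median 10030). Older rats fell below the lowest YNG rat in 14 of 34 cases. Ppp3r1 was lower in AA than in YNG (-0.23, SE 0.10, adjusted p = 0.125), and the changes of -0.13 in AV and -0.05 in ADQ were not called in the main fit. With array weights the AV change was -0.19 and was called (p = 0.0252). The AA change was -0.21 and was not called without the 9 libraries, and it was -0.13 once the library total was a covariate (p = 0.212).

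**Figure D2:**
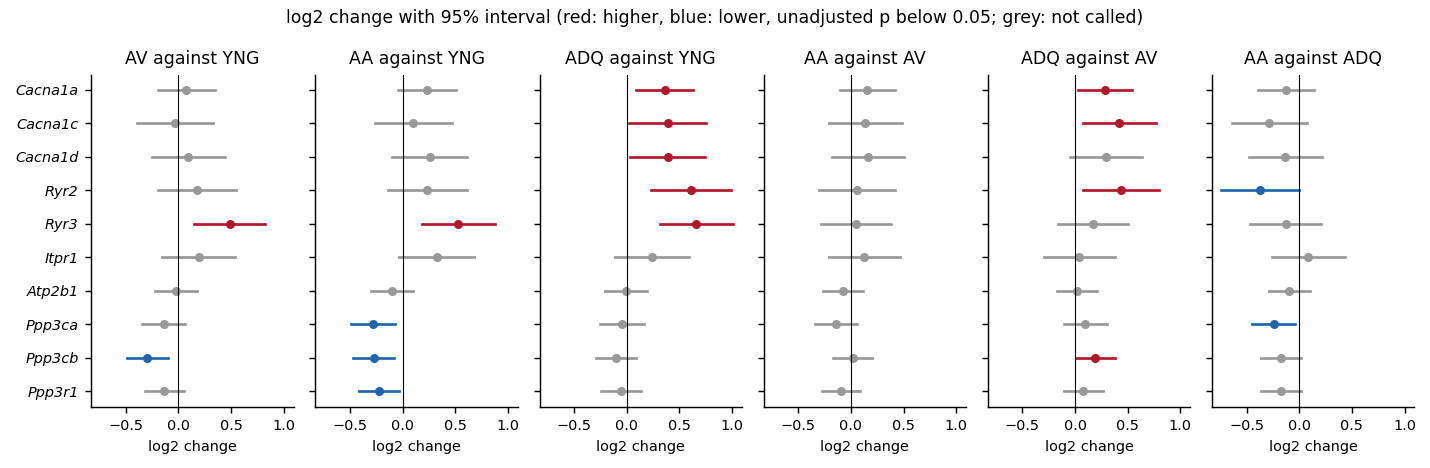
Change of each gene on the log2 scale (x axis, dot) with its 95% interval (line) in the 6 comparisons between pairs of groups, with called genes in red (higher) or blue (lower). In ADQ against YNG the 5 called genes were the 3 channel subunits, Ryr2 and Ryr3, all higher, and in AA against YNG 3 calcineurin subunits were lower.

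By group, the calls against YNG were 2 of the 10 genes for AV (1 higher, 1 lower), where 21.3% of all genes were called (10.6% higher, 10.7% lower). They were 4 for AA (1 higher, 3 lower), where 26.6% of all genes were called (12.6% higher, 14.1% lower), and 5 for ADQ (5 higher), where 28.1% were called (13.5% higher). The AV count was thus close to the share over all genes. In the comparisons between treatments, 0 of the 10 genes were called in AA against AV (4.51% of all genes). The 95% intervals there reached from -0.34 (Ppp3ca) to 0.50 (Cacna1d), so the data allow changes within those limits. In ADQ against AV 4 of the 10 were called, all higher (9.32% of all genes, 3.42% higher), namely Cacna1a, Cacna1c, Ryr2 and Ppp3cb. The estimates of all 10 were positive, as were 52.1% of those of all genes, with a median of 0.18 against 0.00809 over all genes. The 10 genes did not vary independently. In the low-number rats described below, Itpr1 (-0.13), Atp2b1 (-0.13) and Ppp3r1 (-0.01) were below 0 in this comparison. After adjustment 0 of 15598 genes were called in ADQ against AV, and the smallest adjusted p of any gene was 0.134. In AA against ADQ 2 of the 10 were called, both lower (4.53% of all genes, 2.4% lower), and 0 genes were called after adjustment. Leaving out AV rat 3989, which had the lowest Ryr2, Cacna1c and Cacna1a values of all 44 rats and 19.97% mitochondrial values, left none of the 4 genes called in ADQ against AV below the threshold (0 called, 6.89% of all genes). Their changes were then 0.33 for Ryr2 (p = 0.0576), 0.31 for Cacna1c (p = 0.0583), 0.22 for Cacna1a (p = 0.081) and 0.16 for Ppp3cb (p = 0.0837). In the main fit they were 0.43, 0.42, 0.28 and 0.19. Without AV rat 4571, 2 were called (7.65% of all genes). When the library total was a covariate, 3 of the 4 calls stayed (8.82% of all genes), with 0.35 for Ryr2 (p = 0.0329), 0.35 for Cacna1c (p = 0.0319) and 0.23 for Ppp3cb, and Cacna1a was 0.25 (p = 0.0529). With the mitochondrial share as a covariate 1 of the 4 stayed, Cacna1c at 0.25 (p = 0.0488). Ryr2 was then 0.26 (p = 0.0542), Ppp3cb 0.19 (p = 0.0504) and Cacna1a 0.22 (p = 0.0809). Rat 3989 also had the highest oligodendrocyte (169500), astrocyte (79640), endothelial (8139) and microglial (6266) marker sums of all rats, and the lowest granule cell sum but for AA rat 4107 (6806 and 3705). Rat 4107 had the highest CA1 marker sum (43510) and rat 3989 the next (29160). With rat 4107 left out, Ryr2 in AA against ADQ was -0.26 and not called (p = 0.139), and the 4 calls of AA against YNG stayed. The 2 calls of AA against ADQ went to 0 without AA rat 3996 or ADQ rat 4106 (4.69% and 4.18% of all genes) and to 4 without AA rat 4070 or ADQ rat 4105 (5.64% and 5.49%). In ADQ against YNG 3 genes were called without any single one of YNG rats V1, V2, V3, V9 and V12 or ADQ rat 4006, against 22.5% to 24.9% of all genes. In older against YNG 5 were called without YNG rat V6, V10 or V11 or AV rat 3890 (31.9% to 37.9% of all genes), and 6 without AV rat 4567 (35.6%).

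Cell type markers moved alongside some of these differences. In ADQ against AV, 4 of 6 oligodendrocyte, 4 of 6 microglial and 3 of 5 endothelial markers were lower, against 5.9% of all genes. Without the 9 libraries these counts were 1, 3 and 4. The shares of all genes in this paragraph come from the fit of all rats. Those without the 9 libraries, in either direction, are given below, under how the results depend on the processing. They were lower in ADQ against AV and in every comparison with YNG. Shares by direction, and any share for AA against ADQ, are not given there. The marker counts without the 9 libraries therefore cannot be set against a share of the same direction. The summed oligodendrocyte level ranged from 52700 to 169500 in AV (median 77560) and from 57780 to 75880 in ADQ (median 61980), with Mbp the most abundant gene. The summed endothelial level ranged from 2337 to 8139 in AV (median 3177) and from 2222 to 3031 in ADQ (median 2574), with Cldn5 the most abundant, and the microglial sum had medians of 4131 and 3527, with Csf1r the most abundant. In AA against AV, 2 of 6 microglial, 2 of 5 endothelial and 1 of 6 astrocyte markers were also lower. The median changes were -0.21 for the microglial and -0.36 for the endothelial list. There 1 of 6 interneuron, 1 of 8 CA3 and mossy cell and 1 of 6 immediate early markers were higher. Of all genes 4.51% were called there in either direction. In AV against YNG, 5 of 6 oligodendrocyte and 4 of 5 endothelial markers were higher, against 10.6% of all genes. These counts were the same without the 9 libraries, and the YNG sums had medians of 66750 and 2256. In AA against YNG, where the calcineurin subunits were lower, 4 of 6 interneuron, 4 of 6 immediate early, 3 of 6 oligodendrocyte and 2 of 5 endothelial markers were higher, with 2, 3, 3 and 3 higher without the 9 libraries. Of all genes 12.6% were higher and 14.1% lower in AA against YNG, and 1 of 6 astrocyte markers was lower. The interneuron sum ranged from 5180 to 7196 in YNG (median 6250) and from 6166 to 9783 in AA (median 7790). In ADQ against YNG, where the 5 channel and release genes were higher, 2 of 6 interneuron, 1 of 6 oligodendrocyte, 1 of 5 endothelial and 1 of 6 immediate early markers were higher, and 2 of 6 astrocyte, 1 of 6 microglial and 1 of 8 CA3 and mossy cell markers lower. Of all genes 13.5% were higher in ADQ against YNG, and 28.1% were called in either direction. There, 1 interneuron, 3 endothelial and 1 immediate early marker were higher without the 9 libraries, and 0 of these markers lower. In AA against ADQ, where Ryr2 and Ppp3ca were lower, 4 of 6 immediate early genes, which report recent neuronal activity, were higher. Of all genes 4.53% were called there in either direction, with 2.4% lower. The 4 were Fos (0.72), Arc (0.64), Junb (0.53) and Npas4 (0.69), each with an adjusted p of 0.981, and 3 of the 6 were higher without the 9 libraries. Over all older rats 4 of 6 oligodendrocyte, 3 of 6 interneuron, 2 of 6 immediate early and 2 of 5 endothelial markers were higher than in YNG and 2 of 6 astrocyte markers lower. Of all genes 15.7% were higher and 16.7% lower in that comparison. Without the 9 libraries the marker counts were 3, 3, 1, 4 and 0. The astrocyte list as a whole was not lower in older rats. Its median change from YNG was 0.03, and its sum had a median of 42650 in YNG and 44750 in the older rats. None of the oligodendrocyte, microglial and endothelial lists had a marker at 0 in any rat. The part of these cells in the differences of the calcium genes was not tested. Markers of dentate granule cells (C1ql2 the most abundant, Prox1 and 4 others tested) were called in 0 of 6 cases in each comparison between the 3 older groups and in AV against YNG. C1ql2 was the 1 of 6 that was lower in AA (-0.52, adjusted p = 0.0982), in ADQ (-0.41, adjusted p = 0.178) and in all older rats (-0.42, adjusted p = 0.0708) relative to YNG, and 0 of 6 were called in AA or all older rats without the 9 libraries. Tdo2 was at 0 in some rats, and Prox1 was detected in every rat. CA1 markers, led by Wfs1, were also detected in every rat, with sums from 1976 to 43510, and 0 of 6 were called in each of the 7 comparisons.

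The 10 genes did not vary independently from rat to rat. With the group means removed, Cacna1c and Ryr2 had a correlation of r = 0.94 over the 44 rats, Cacna1d and Ryr2 of 0.78, and Cacna1c and Cacna1d of 0.76. Among the calcineurin subunits r was 0.50 for Ppp3ca and Ppp3cb and 0.56 for Ppp3cb and Ppp3r1. Ryr3 followed Cacna1d (0.63) and Itpr1 (0.62) more than Ryr2 (0.38), and it ran against Ppp3cb (-0.55). These are descriptions over libraries that share their scaling. The same values correlated with the library total, at -0.80 for Cacna1d, -0.63 for Ryr3, -0.49 for Ryr2 and 0.50 for Ppp3cb. With the mitochondrial share, r was -0.73 for Cacna1c, -0.71 for Ryr2 and -0.60 for Cacna1d.

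**Figure D3:**
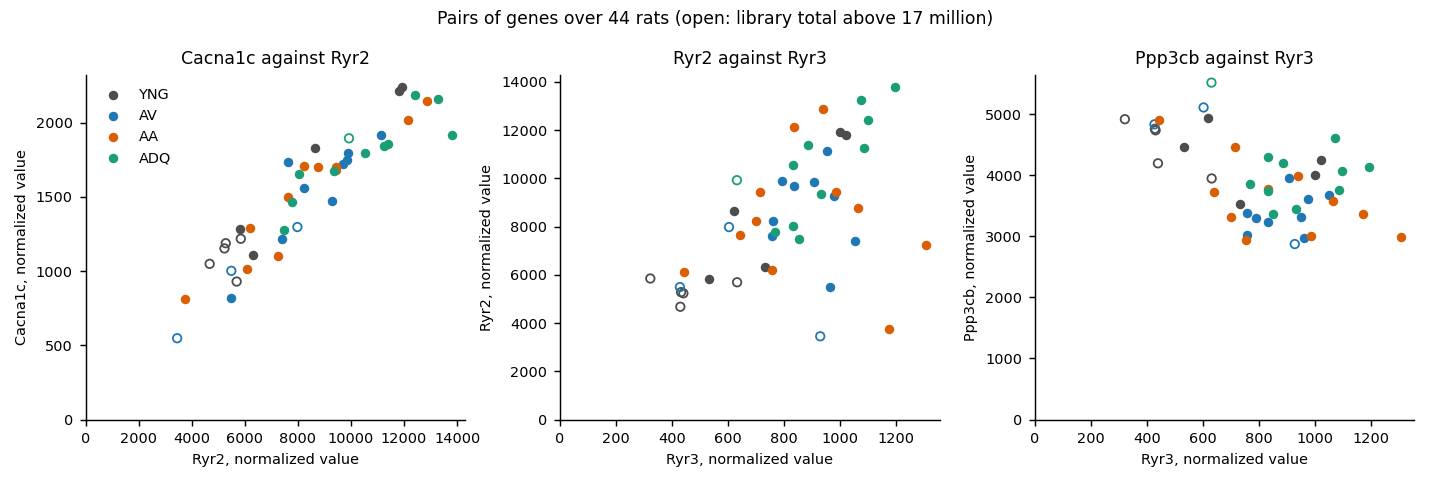
Normalized values of Cacna1c against Ryr2, Ryr2 against Ryr3, and Ppp3cb against Ryr3, with 1 point per rat colored by group and open circles for libraries with totals above 17000000. The Cacna1c and Ryr2 points lie along a line (r = 0.94 within groups), and rats low in Ryr3 are mostly open circles with high Ppp3cb.

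**Figure D4:**
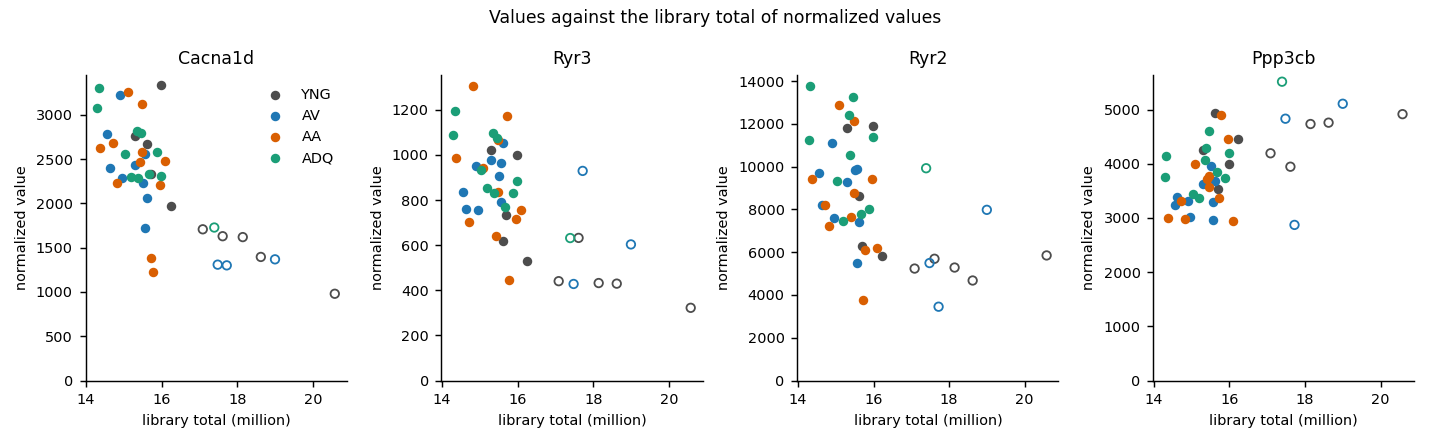
Normalized values of Cacna1d, Ryr3, Ryr2 and Ppp3cb (y axes) against the library total (x axes), 1 point per rat. The 9 open circles to the right of 17000000 lie low for Cacna1d and, apart from 1 AV rat, for Ryr3, and mostly high for Ppp3cb.

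Because Cacna1c and Ryr2 varied together most closely, the sequence around their start sites is shown, from RefSeq on the GRCr8 build, 250 bases before to 50 after the annotated start and read 5′ to 3′ on the gene's strand. The Ryr2 window lies at chr17:63081277-63081576 on the plus strand and the Cacna1c window at chr4:154051699-154051998 on the minus strand. GRCr8 is not the rn6 build to which the reads were aligned. Capitals mark a match on either strand to the GC box, spelled GGGCGG, to the CCAAT box, spelled by its name, or to the core of the cAMP response element, spelled TGACG.
Ryr2: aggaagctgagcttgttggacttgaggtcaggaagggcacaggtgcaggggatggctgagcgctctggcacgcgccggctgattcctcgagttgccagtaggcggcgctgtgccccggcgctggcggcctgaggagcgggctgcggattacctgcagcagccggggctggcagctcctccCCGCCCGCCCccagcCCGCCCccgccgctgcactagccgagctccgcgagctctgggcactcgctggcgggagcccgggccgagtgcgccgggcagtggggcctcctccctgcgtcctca
Cacna1c: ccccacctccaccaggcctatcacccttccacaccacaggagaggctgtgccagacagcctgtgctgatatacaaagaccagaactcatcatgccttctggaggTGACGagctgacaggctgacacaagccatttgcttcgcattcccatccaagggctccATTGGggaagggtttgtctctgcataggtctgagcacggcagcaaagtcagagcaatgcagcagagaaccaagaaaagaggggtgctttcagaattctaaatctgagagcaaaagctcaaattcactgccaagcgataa
The windows differ in composition. The Ryr2 window holds 73% G and C bases, 28 CpG dinucleotides and 3 GC boxes, of which a pair overlaps, and 0 CCAAT boxes. The Cacna1c window holds 51.7% G and C, 4 CpG and 0 GC boxes, with 1 CCAAT box and 1 cAMP response element core. Of 33365 rat promoter windows, 33.1% hold a GC box, 37.5% a CCAAT box and 21.2% the core. A match is a description of the letters and not a binding site.

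By a rule based on the correlation of log2 values with group means removed, over 44 rats, the genes most like each member were named. The rule used the 13704 genes with a mean of at least 20 and named only genes outside the members. Correlations between members, such as that of Ryr2 and Cacna1c, are given above. Ryr2 was most like Fat4 (r = 0.94), Plxna4 (0.91) and Clstn2 (0.90), and among the genes most like Cacna1c were Rimbp2 and Adarb1 (0.92 each). Cacna1d followed Rreb1 (0.95), Notch2 and Plekhh2 (0.94 each), and among the genes that Cacna1a followed were Dop1b (0.92) and Prrt2 (0.83). For Ryr3 the nearest were AABR07047789.1 (0.92), Jakmip3 (0.87) and Elk4 (0.87), and for Itpr1 Ndst3 (0.82), Cadps2 (0.81) and Olfm3 (0.79). Atp2b1 was closest to Ppp1r2 and Cnksr2 (0.79 each) and Heca (0.75). Ppp3cb followed the neurofilament gene Nefl (0.86), Fam131b (0.85) and Dnaja4 (0.84), and Ppp3r1 followed Klhl23 (0.88), Usp14 (0.86) and Kpnb1 (0.83). Ppp3ca had the weakest neighbors, Rbfox1 (0.76), Zbtb20 (0.75) and Pcdh19 (0.73).

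Ratios within a library do not depend on its scaling factor, although their level also depends on transcript length, so only their spread over rats is described. The log2 ratio of Ryr2 to Ryr3 had a median of 3.55 for YNG (range 3.11 to 4.18), 3.44 for AV (1.89 to 3.73), 3.55 for AA (1.68 to 3.86) and 3.50 for ADQ (3.13 to 3.97). The low ends came from AV rat 3989 and AA rat 4107, in which Ryr2 was low and Ryr3 was not. The log2 ratio of Ppp3ca to Ppp3cb had medians of 1.26 for YNG, 1.35 for AV, 1.29 for AA and 1.24 for ADQ, and the widest range was that of YNG (0.46 to 1.64). The ratio of Cacna1c to Cacna1d had medians from -0.66 (AV) to -0.56 (YNG), and that of Ppp3ca to Ppp3r1 from -0.07 (YNG) to -0.01 (AV). The group medians of the 4 ratios differed by less than the range within any group.

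Of 107 other calcium signaling genes tested, in 7 lists, 39 were called in older rats relative to YNG (18 higher, 21 lower). This is 36.4%, near the 32.4% of all genes (15.7% higher, 16.7% lower), so the counts below do not set these lists apart from other genes. Only 7 of the 107 were called without the 9 libraries (6.54%, against 9.12% of all genes), and of the genes named below Itpr3 (0.77, p = 0.0109) and Calb1 (-0.47, p = 0.00726) were called there. With the library total as a covariate 14 of the 107 were called (13.1%, against 9.62%). Of 19 other voltage-gated channel subunits tested, 4 were higher and 4 lower. Cacng2 (-0.64, adjusted p = 0.0438) and Cacng4 (-0.28, adjusted p = 0.025), which encode auxiliary subunits best known as AMPA receptor partners, were lower, Cacng7 was higher (0.26, adjusted p = 0.0446), and Cacna1s, at a mean of 20.1, was lower (-0.51, adjusted p = 0.0625). Of 21 other store release and refill genes, 2 were higher and 6 lower. The other inositol trisphosphate receptors, Itpr3 (0.74, adjusted p = 0.0297) and Itpr2 (0.40, adjusted p = 0.036), were higher, and the store-operated channel Orai1 (-0.48, adjusted p = 0.0365) and the store buffer Calr (-0.30, adjusted p = 0.0435) were lower. Of 17 extrusion and mitochondrial uptake genes, 5 were higher and 3 lower. They include the uniporter regulator Micu3 (0.37, adjusted p = 0.0308), the exchanger Slc24a3 (-0.29, adjusted p = 0.0322) and Letm1 (-0.23, adjusted p = 0.0358).

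Around calcineurin, 3 of 8 other subunits, regulators and anchors were higher and 1 was lower in older rats. Rcan3 (0.59), Akap1 (0.13) and Rcan2 (0.24) were higher, with adjusted p from 0.0573 to 0.141, and the calcineurin-like Chp1 was lower (-0.26, adjusted p = 0.0336). Of 15 calcineurin targets, 2 were higher and 3 lower. The phosphatase inhibitors Ppp1r1b (-0.34, adjusted p = 0.0152) and Ppp1r1a (-0.40, adjusted p = 0.0361) were lower, and the endocytic proteins Synj1 (0.23, adjusted p = 0.0255) and Amph (0.51, adjusted p = 0.0619) were higher. Of 14 calmodulin genes and kinases, 1 was higher and 3 lower, the latter including the calmodulin-binding Pcp4 (-0.55, adjusted p = 0.0235) and Nrgn (-0.42, adjusted p = 0.0424). Calm2 was the gene that was higher (0.24, adjusted p = 0.131). Of 13 buffers and sensors 1 was higher, Kcnip2 (0.26, adjusted p = 0.145), and 1 was lower, the granule cell buffer Calb1 (-0.53, adjusted p = 0.00729), while Vsnl1 (0.11) and Pvalb (-0.24) were not called.

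Between treatments, 3 of the 107 genes were called in AA against AV (2.8%, against 4.51% of all genes) and 12 in ADQ against AV (7 higher, 5 lower; 11.2%, against 9.32% of all genes). These counts were 0 and 10 without the 9 libraries. The share of all genes called there in ADQ against AV is given below, under how the results depend on the processing. That of AA against AV is not given, so its count of 0 cannot be set against a share. In AA against AV the calls were Cacna1g higher (0.42), Calb2 higher (0.55) and Mcub lower (-0.51), 3 genes with an adjusted p of 0.999. In ADQ against AV the named calls were Cacna2d3 (0.25), Synj1 (0.21), Camk1d (0.24) and Stim2 (0.19) higher and Tfeb (-0.30), Slc8b1 (-0.37), Mcub (-0.52) and Cacng4 (-0.21) lower, with adjusted p from 0.352 to 0.512. The other 4 calls were Mcu (0.21), Micu3 (0.28) and Vdac1 (0.24) higher and Nfatc1 (-0.33) lower, with adjusted p from 0.436 to 0.533, so that the extrusion and mitochondrial uptake list had 3 genes higher and 2 lower of 17. Tfeb encodes a transcription factor of lysosomal genes that calcineurin dephosphorylates, Slc8b1 the sodium-calcium exchanger of mitochondria and Stim2 a calcium sensor of the endoplasmic reticulum.

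Rats with low numbers (V1 to V6 and 3890 to 4011, 22 rats) and with high numbers (V9 to V12 and 4031 to 4572, 22 rats) were also taken apart, although the labels name no batch. In the low-number rats 5 of the 10 genes were called in older against YNG, against 38% of all genes. Ryr3 was higher in older rats than in YNG by 0.73 and Ppp3cb was lower (-0.36), and both were called, as were Ryr2 (0.45), Itpr1 (0.43) and Ppp3ca (-0.33). In the high-number rats 0 of the 10 were called, against 8.82% of all genes, with 0.31 for Ryr3 and -0.09 for Ppp3cb. The difference between the series was not called for 9 of the 10 genes in older against YNG. For Ppp3ca it was 0.39 (unadjusted p = 0.0273, adjusted p = 0.181), and 20.3% of all genes passed the unadjusted threshold for this difference.

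**Figure D5:**
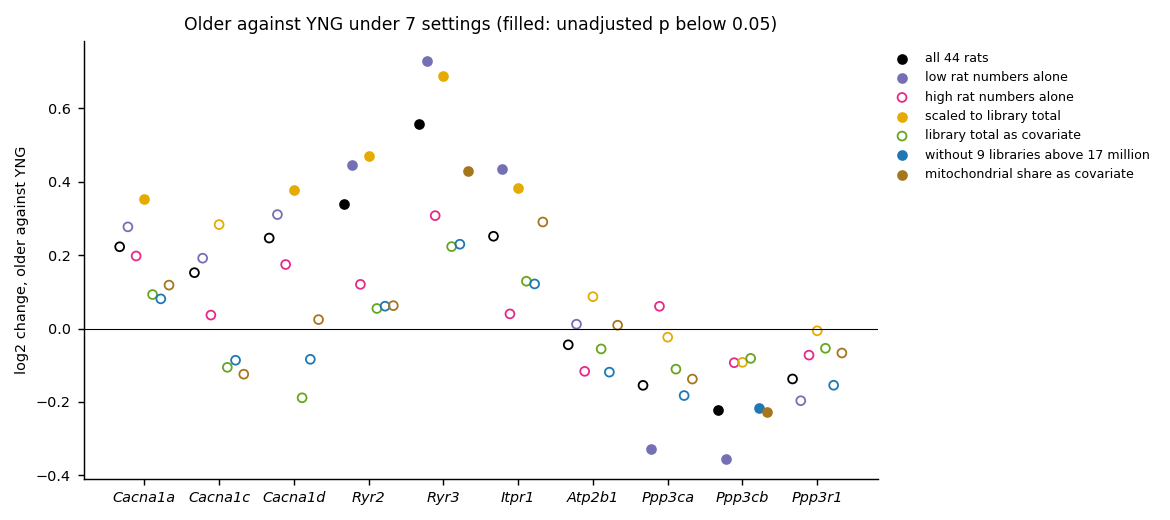
Change of each gene in older rats relative to YNG on the log2 scale (y axis) under 7 settings, with filled points where the unadjusted p was below 0.05. Ryr3 is above 0 in all 7 and called in 4, and Ppp3cb is below 0 in all 7 and called in 4.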

How the data were processed

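The libraries were poly(A)-selected RNA of the DG, 1 per rat and 44 in all. According to the methods of the study and the submitters' processing notes, the authors aligned the reads to rn6 with STAR 2.5.3a in Partek, scaled them by the median ratio and tested them with DESeq2. The deposited table holds signal values, which are estimated reads per entry divided by a size factor per library, for 24694 entries and 18347 gene identifiers. Reads of a gene are shared between its entries as fractions, so whole reads could not be recovered and no count model was used. Entries were summed per gene, and genes with a mean of at least 5 (15598) were kept. Values were fitted as log2(value + 1) by limma (version 3.58.1, empirical Bayes moderation with a mean trend) in R 4.3.3, in a single fit of the 4 groups. Tests were two-sided, with the study's unadjusted threshold of 0.05 and Benjamini-Hochberg adjusted p beside it. Nothing in the labels says that rats were processed as separate batches, and each rat was a separate animal. Python 3.11.15, pandas 2.3.3, numpy 2.4.6 and matplotlib 3.10.9 were used for tables and figures. The fit was checked on simulated data. All 10 genes are named. Of the other calcium lists, the named genes have the smallest p among genes with a mean of at least 20 (up to 4 in older against YNG and up to 2 in AA and in ADQ against AV). A few genes that the rule would name are not reported here. The members and lists were chosen with earlier results of these data known. No 2 libraries held the same values (highest correlation 0.98616). Transcript lengths were not used here, so the ratios of a pair of genes and the naming of a list's highest gene rest on values that are not per length. Coordinates of the genes on rn6 were not used here. Alternatives were other pseudocounts, filters, scalings, single entries, variance models, series of rat numbers, library total or mitochondrial share as a covariate, and leaving out single rats or the 9 libraries above 17000000.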

Additional observations from a re-analysis of the deposited data

Results flagged for a closer look

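The difference in Ppp3ca between the 2 series of rat numbers passed the unadjusted threshold in 3 comparisons that share the YNG rats. It was 1 of the 10 genes in each, while 17.3% of all genes passed in AA, 8.89% in ADQ and 20.3% in older against YNG, so the count is close to or below the share over all genes. On the log2 scale, the change of the high-number rats minus that of the low-number rats was 0.44 in AA against YNG (p = 0.0394, adjusted p = 0.264), 0.42 in ADQ against YNG (p = 0.0491, adjusted p = 0.558) and 0.39 in older against YNG (p = 0.0273, adjusted p = 0.181). In the low-number rats Ppp3ca was lower in AA than in YNG by 0.48 on the log2 scale, and in the high-number rats the change was -0.05. Over all genes, 653 of 15598 differed between the series after adjustment in older against YNG, and none of the 10 was among them. No YNG rat stood out from the other 9 in any of the 10 genes by Dixon's criterion for 10 values, which chance alone would exceed in about 1 of 20 groups. The other groups have more than 10 rats and were not examined in this way.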

How the results depend on the processing

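Pseudocounts of 0.5 and 5, both other filters and robust empirical Bayes kept the number of called genes within 1.5 times of the reported number in every comparison. With values scaled to the library total, 5 genes were called in older against YNG (38.2% of all genes; Ppp3cb was lost at -0.09) and 1 in AA against ADQ (3.81%), and upper quartile scaling also called 1 in AA against ADQ (4.68%). Array weights called 7 genes in AV, 8 in AA and 9 in the older rats against YNG, and 4 in AA against ADQ, where 49.3%, 45.3%, 55.5% and 10.2% of all genes were called. In the low-number series alone, 5 were called in older against YNG (38%) and 3 in ADQ against YNG (27.4%). The comparisons of ADQ with AV (5.67%) and of AA with ADQ (5.98%) had 0 calls each there. In the high-number series alone, the calls against YNG were 0 for AV, AA, ADQ and all older rats (6.31%, 12.4%, 6.9% and 8.82% of all genes), those of AA against ADQ were also 0 (4.15%), and 1 gene was called in ADQ against AV (9.74%). With the library total as a covariate, 0 were called in AA (7.71% of all genes), ADQ (7.44%) and older (9.62%) against YNG, and 3 of the 4 calls in ADQ against AV stayed. Relative to YNG, Cacna1d turned to -0.25 in AV (called), and to -0.24 in AA and -0.0801 in ADQ (neither called). Ryr2 turned to -0.0487 in AV and -0.088 in AA, Cacna1c to -0.19 in AA and Cacna1a to -0.026 in AV, none of them called. Without the 9 libraries above 17000000, 1 gene was called in AV (11.5% of all genes), 2 in AA (7.37%), 0 in ADQ (6.08%) and 1 in older rats (9.12%) against YNG, and 1 in ADQ against AV (7.61%). Over all genes, the calls in older against YNG went from 5058 to 1423 there and to 1501 with the library total as a covariate. With the mitochondrial share as a covariate, 1 gene was called in ADQ against YNG (18% of all genes) and 1 in ADQ against AV (6.78%). The last pair of alternatives (the 9 libraries and the mitochondrial share) was chosen after the values were seen, as were the refits of the other calcium genes and markers. The cause of these shifts was not tested.

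Leaving out each of the 44 rats in turn, the number of called genes ranged from 2 to 3 in AV, 3 to 5 in AA, 3 to 5 in ADQ and 2 to 6 in older rats against YNG, and was 0 throughout in AA against AV. It ranged from 0 to 4 for ADQ against AV and from 0 to 4 for AA against ADQ. Ryr3 stayed called in 44 of 44 fits in older against YNG, also after adjustment, and Ppp3cb in 44 of 44, in 12 of them after adjustment. The 0 in ADQ against AV came without AV rat 3989, and the 0 in AA against ADQ without AA rat 3996 or ADQ rat 4106. No paired analysis was possible because the labels number the rats individually and pair none across groups. With depth unknown for single entries, precision was taken from the spread between rats.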

Other observations

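With array weights, which give less weight to libraries that vary more, 7 of the 10 genes passed the adjusted threshold in older against YNG, where 7686 of all 15598 genes did so as well. The interneuron gene Gad2 was higher in the older rats than in YNG (0.34, adjusted p = 0.0126).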
